A study of Homo sapiens with 9 samples.

Results

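The 4 libraries described here came from Daoy cells, an established human medulloblastoma line, in which FLAG-tagged DDX3X was expressed on top of a hairpin against the endogenous gene. They are 4 of the 9 libraries in the series: 1 labelled wild type and 3 labelled with a helicase mutant, G302V, R534H or P568L, chosen by their titles. All 4 populations carried a hairpin RNA that targets the DDX3X 3' untranslated region, delivered in tet-pLKO-puro and switched on by doxycycline, and received 1 µg/ml of the drug for 72 h. The tagged protein was encoded in pCMV10-3xFlag, and the hairpin populations were polyclonal. For reference, the text also uses the parental line, a vector control, 2 libraries with the 3' untranslated region hairpin (shDDX3X 1 and 3) and 1 with a hairpin against the open reading frame (shDDX3X 2). The labels give 1 treatment text for all libraries and do not say for each control whether it received the drug. They also do not say that libraries came from separate cultures, so the p-values reflect the variation among these samples alone, and part of it may be technical.

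DDX3X is an X-linked DEAD-box RNA helicase that unwinds structured RNA with the energy of ATP and takes part in translation initiation, stress granule assembly and innate immune signalling. DEAD-box proteins close a pair of RecA-like domains around ATP and RNA, and conserved motifs in both make the contacts. Missense mutations of DDX3X recur in medulloblastoma and cluster in these domains. G302V lies in the first RecA-like domain, and R534H and P568L lie in the second, with R534 in motif VI, which contacts ATP and RNA. The reference sequence around each altered codon is shown because the 3 alleles are the only designed difference between the 4 libraries. Each is from GENCODE v29 on GRCh38, plus strand, with the codon for the altered residue in capitals, in exon 10, 14 and 15 in this order, at chrX:41344266-41344292, chrX:41346595-41346621 and chrX:41346933-41346959.
G302V: tgcgtggtttatGGTggtgccgatatt
R534H: ggtcgtacgggaCGTgtaggaaacctt
P568L: aaacaagaagtgCCGtcttggttagaa

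Reads assigned to genes numbered 8318129 in wild type, 8216568 in G302V, 9576711 in R534H and 13030572 in P568L. In a library where a gene had no read, its level may reach 0.230 to 0.365 CPM depending on the library (3 counts of its total), counting error only. CPM are counts scaled to library size with TMM (trimmed mean of M values). The neural tumour markers were present, with 13 of 18 at 1 CPM or more in all 4 lines and BARHL1 at 0. The endothelial list summed to 14.03 to 21.9 CPM, with TEK and ERG at 1 CPM or more in all 4 lines and EMCN at 0. The haematopoietic list summed to 3.43 to 5.45 CPM, with CSF1R at 1 CPM or more in all 4 lines and CD3E and HBA1 at 0. The fibroblast and smooth muscle list, described below, summed to 6001 to 9419 CPM, and the neural tumour list to 1352 to 1738 CPM. No 2 of the 4 libraries were copies of each other (chi-square per degree of freedom of 7.59 to 16.5). P568L stood apart in one respect: its log2 ratio to wild type was correlated with transcript GC content across 11542 genes (Spearman correlation of -0.518), compared with 0.02 in G302V and -0.05 in R534H. Genes are not independent replicates, and the part of this trend in single results was measured only where a value with the trend removed is given.

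The targeted gene was examined first. DDX3X stood at 683 CPM in parental cells and 453 CPM in vector cells. It was at 249, 139 and 182 CPM in shDDX3X 1, 2 and 3. The re-expression libraries were at 195 CPM for wild type, 198 CPM for G302V, 211 CPM for R534H and 242 CPM for P568L. The 4 re-expression libraries were thus all above shDDX3X 3 and all below both controls, and a restored DDX3X level is not visible in these gene counts. Reads of the tagged and of the endogenous transcript cannot be told apart here, so the level of the tagged RNA is not known. In every comparison below, wild type and the mutant names stand for the libraries labelled so. The mutants together averaged 217 ± 22.5 CPM (SD, n = 3), a log2 difference from wild type of 0.15 ± 0.31 (SE), with an adjusted p of 1 in edgeR's quasi-likelihood test.

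The first comparison asked which genes differ between cells with mutant and cells with wild type DDX3X, taking the 3 alleles as a class. By edgeR's quasi-likelihood test with Benjamini-Hochberg adjustment, 0 of 16155 genes passed in either direction (0% of genes tested), and the smallest adjusted p was 1. At an unadjusted p under 0.05, 88 genes were higher in the mutants (0.545%) and 227 were lower (1.41%). DESeq2 also called 0 genes, with 169 at an unadjusted p under 0.05 and a smallest adjusted p of 0.326. In simulated counts the same fit recovered 22% of genes altered 2-fold and 95% of genes altered 4-fold, so 2-fold differences would mostly have been missed. Real genes with a wide spread can be missed at 4-fold too: NOTCH3, at a log2 difference of -2.01 ± 0.99 (SE), did not pass. Each mutant against wild type gave 0 calls as well, with 136 genes at an unadjusted p under 0.05 in G302V (0.842%), 185 in R534H (1.15%) and 335 in P568L (2.07%). The following values are therefore descriptions of 4 libraries, with no gene past the test.

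Genes that all 3 mutants moved in the same direction by at least 2-fold were all lower than wild type. Of 11682 genes with a mean of at least 5 CPM over the 4 libraries, 19 were at least 2-fold lower in G302V, R534H and P568L (0.163%) and 0 were at least 2-fold higher (0%). At 1.5-fold the counts were 95 lower (0.813%) and 41 higher (0.351%), and at 4-fold both were 0 (0%). By any amount, all 3 mutants lay above wild type for 2987 genes (25.6%) and below it for 2536 (21.7%). The 3 ratios share the single wild type library, so a low or high value in that library alone gives agreement of all 3. The 5 CPM mean also includes wild type, so a gene can pass it through a high wild type level. Of the 19, mutant means were under 5 CPM for RHOU (3.52), ALDH1A1 (3.54), PTP4A3 (3.99), ZNF853 (4.23), SYT13 (4.27) and ADGRA2 (4.96). One mutant at a time, the genes at least 2-fold lower than wild type numbered 84 in G302V (0.719%), 106 in R534H (0.907%) and 215 in P568L (1.84%). Those at least 2-fold higher numbered 41 (0.351%), 43 (0.368%) and 49 (0.419%). With only 2 mutants required, the lower set held 67 genes without G302V, 41 without R534H and 25 without P568L, and the higher set held 15, 4 and 5.

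**Figure D1:**
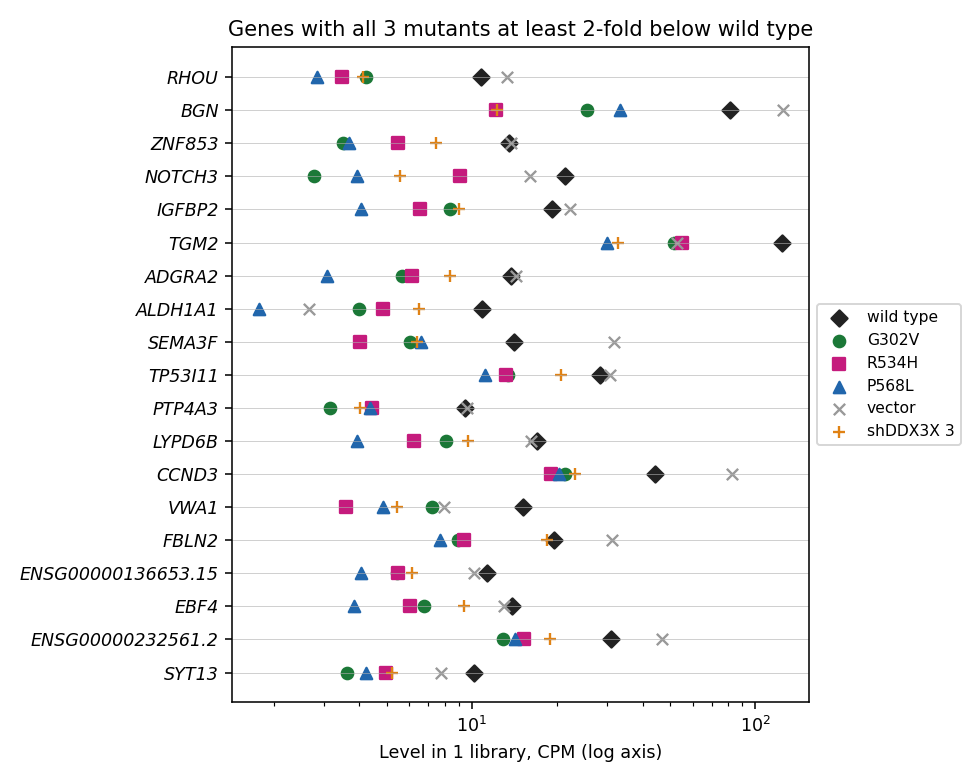
Level in CPM (log axis) of the 19 genes with all 3 mutants at least 2-fold below wild type, 1 point per library, with the vector and shDDX3X 3 libraries for reference. Every mutant point lies left of the wild type diamond, as the choice of genes requires, while shDDX3X 3 lies left of the vector library for 18 of the 19.

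Several of the 19 encode secreted or surface proteins of the matrix and of signalling. BGN, a small leucine-rich proteoglycan of the extracellular matrix, stood at 81.0 CPM in wild type, 25.5 in G302V, 12.1 in R534H and 33.2 in P568L. It was at 125 CPM in vector cells and 12.3 CPM in shDDX3X 3, so the mutants lay between shDDX3X 3 and wild type or at the shDDX3X 3 level. The other knockdowns differed, with 26.2 CPM in shDDX3X 1 and 137 CPM in shDDX3X 2, against 79.2 CPM in parental cells. NOTCH3, a Notch receptor, was at 21.2 CPM in wild type and at 2.78, 9.08 and 3.92 CPM in G302V, R534H and P568L. The highest mutant, R534H, was still 2.31-fold below wild type, and vector and shDDX3X 3 were at 16.1 and 5.55 CPM. In shDDX3X 1 and 2 NOTCH3 was instead above parental cells, at 6.37 and 24.0 CPM against 2.03 CPM. IGFBP2, a secreted binding protein of insulin-like growth factors, was at 19.1 CPM in wild type and 8.34, 6.55 and 4.07 CPM in the mutants in the same order. ADGRA2, an adhesion G protein-coupled receptor that acts in Wnt7 signalling, was at 13.8 CPM in wild type and 5.68, 6.13 and 3.07 CPM in the mutants. In both genes P568L was the lowest of the 3. Parental cells were lower still, at 2.65 CPM for each gene, and vector cells were at 22.1 CPM for IGFBP2 and 14.3 CPM for ADGRA2. SEMA3F, a secreted semaphorin that guides axons, was at 14.1 CPM in wild type and 6.04, 4.01 and 6.60 CPM in the mutants. It was at 31.7 CPM in vector cells and 6.38 CPM in shDDX3X 3, but at 2.10 CPM in parental cells and 2.98 and 3.44 CPM in shDDX3X 1 and 2. LYPD6B, a Ly6-family protein, was at 16.9 CPM in wild type and 8.10, 6.23 and 3.92 CPM in the mutants. FBLN2, a fibulin of the extracellular matrix, lay near the threshold, with 19.5 CPM in wild type and 8.95, 9.40 and 7.68 CPM in the mutants.

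Of the other genes, TGM2, a transglutaminase that crosslinks proteins, had the highest wild type level of the 19, with 124 CPM in wild type and 51.5, 55.0 and 29.9 CPM in G302V, R534H and P568L. Vector cells were at 52.9 CPM and shDDX3X 3 at 32.6 CPM, so wild type was above both, G302V and R534H lay near vector and P568L lay near shDDX3X 3. In parental cells TGM2 was at 22.8 CPM, below each mutant. Its log2 difference of mutants from wild type was -1.45 ± 0.42 (SE), with an adjusted p of 1 by edgeR. ALDH1A1, a retinaldehyde dehydrogenase, was likewise higher in wild type than in vector, with 10.8 CPM in wild type, 3.99, 4.86 and 1.77 CPM in the mutants and 2.66 CPM in vector. Parental cells had 1 read of ALDH1A1. RHOU, a small GTPase induced by Wnt signalling, had the largest distance between wild type and its nearest mutant, 2.47-fold. Its levels were 10.7 CPM in wild type, 4.23, 3.49 and 2.84 CPM in the mutants, 13.3 CPM in vector and 4.14 CPM in shDDX3X 3. In parental cells RHOU was higher, at 28.5 CPM. CCND3, the cyclin D3 partner of CDK4 and CDK6, was at 44.0 CPM in wild type and 21.3, 19.0 and 20.3 CPM in the mutants. The mutants lay beside shDDX3X 3 (23.0 CPM) and the vector library was the highest at 82.8 CPM. The other knockdowns differed, with 22.2 CPM in shDDX3X 1 and 82.2 CPM in shDDX3X 2, against 51.1 CPM in parental cells. TP53I11 and the phosphatase PTP4A3 had narrow ranges among the mutants. TP53I11 was at 28.3 CPM in wild type and 13.4, 13.2 and 11.1 CPM in the mutants. PTP4A3 was at 9.44 CPM in wild type and 3.14, 4.44 and 4.38 CPM in the mutants. ZNF853, a zinc finger gene, was at 13.5 CPM in wild type and 3.51, 5.49 and 3.69 CPM in the mutants. The remaining members were VWA1, EBF4, SYT13 and 2 genes without a symbol, ENSG00000136653.15 and ENSG00000232561.2. In these 5 the wild type level ran from 10.1 to 30.9 CPM.

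Just inside the 2-fold threshold were EBF4 and SYT13, whose nearest mutant was at a log2 ratio of -1.014 and -1.003. Just outside were DHRS3 (-0.98), BCHE (-0.95) and EFEMP2 (-0.95). DHRS3, a retinal reductase, stood at 73.4 CPM in wild type and 37.1, 31.2 and 23.0 CPM in the mutants. On the higher side the genes nearest to the threshold were MFSD8 (0.97), CLIC2 (0.91) and SFRP2 (0.89). MFSD8, a lysosomal membrane protein, was at 4.78 CPM in wild type and 9.79, 10.1 and 9.52 CPM in the mutants. MEG3, an imprinted long noncoding RNA, was at 18.4 CPM in wild type and 62.0, 59.2 and 33.2 CPM in the mutants, below its 99.1 CPM in vector cells.

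As a set, the 19 genes were GC-rich. The median transcript GC content of the 17 with a value was 61.2%, compared with 47.8% over all genes of that expression filter, and it was 57.7% in the 1.5-fold lower set and 42.0% in the 1.5-fold higher set. Not every member was GC-rich: ALDH1A1 (41.9%) and LYPD6B (46.1%) lay below the median of all genes, and SYT13 (47.9%) and RHOU (48.1%) beside it. After removal of each library's GC trend, 13 genes remained at least 2-fold lower in all 3 mutants, and all 13 were among the 19. The 2 genes without a GC value were kept as deposited. The 13 that remained included TGM2, BGN, RHOU, NOTCH3, IGFBP2 and TP53I11, but not CCND3, SEMA3F, PTP4A3, VWA1, FBLN2 or EBF4.

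The knockdown and control libraries took no part in choosing the 19 genes and give a separate reading of them. In shDDX3X 3 against vector, 18 of the 19 were lower (94.7%), with a median log2 ratio of -0.76, and 8 were at least 2-fold lower (42.1%). Over all 11682 genes, 47.9% were lower, 2.51% were at least 2-fold lower and the median was 0.02. ALDH1A1 was the exception, at 2.66 CPM in vector and 6.50 CPM in shDDX3X 3. The wider 1.5-fold sets went the same way: 79 of 95 lower genes were lower in shDDX3X 3 (median -0.68), and 9 of the 41 higher genes were lower (median 0.36). For the 19 genes the other knockdowns gave the opposite direction. Against parental cells, 6 of the 19 were lower in shDDX3X 1 (31.6%, median 0.38) and 2 of the 19 in shDDX3X 2 (10.5%, median 0.69), compared with 49.8% and 50.5% of all 11682 genes. Of the 95 genes in the 1.5-fold lower set, 54 were lower in shDDX3X 1 (median -0.17) and 28 in shDDX3X 2 (median 0.46). With the GC trends removed the medians of the 19 genes became -0.85 for shDDX3X 3, -0.71 for shDDX3X 1 with 14 of 19 lower, and 0.17 for shDDX3X 2 with 8 of 19 lower. The shDDX3X 3 and vector libraries belong to the same series of deposited numbers as the 4 re-expression libraries, and the other 3 libraries do not. Only 1 library stood on each side of each knockdown comparison, so none has a replicate check.

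Interferon-stimulated genes were the largest list with mutants mostly below wild type. These genes encode antiviral proteins and are switched on through interferon-stimulated response elements in their promoters. All 48 listed genes were tested and 0 passed edgeR's test. In the fit 42 were lower and 6 higher in the mutants, with a median log2 difference of -0.28, compared with 7790 lower, 8342 higher and a median of 0.01 over all 16155 genes. All 3 mutants lay below wild type for 26 of the 48 (54.2%) and above it for 1, IRF1, compared with 25% and 24.0% of all genes tested. The medians were -0.43 in G302V, -0.16 in R534H and -0.24 in P568L. With GC trends removed the class median was -0.32, and without G302V, R534H or P568L it was -0.22, -0.37 or -0.30. In shDDX3X 3 against vector the list median was -0.64, compared with -0.01 over all genes tested.

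Promoter windows of 4 members are printed because they hold the element through which this list is known to be read. The core of the element, GAAA and GAAA with any 2 bases between them, was searched on both strands from 250 bases before to 50 bases after the gene start, in RefSeq promoters on GRCh38.p14. It was found in 24 of the 37 members that had a promoter entry (64.9%), and in 1255 of all 35116 promoters (3.57%). A match is a description of the letters and not evidence of binding. The match is in capitals, at chr1:1013374-1013403 (plus strand), chr11:313990-314019 (plus), chr10:89392497-89392526 (plus, where it reads on the opposite strand) and chr21:41420559-41420588 (plus).
ISG15: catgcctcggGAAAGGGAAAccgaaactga
IFITM1: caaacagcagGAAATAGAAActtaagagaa
IFIT1: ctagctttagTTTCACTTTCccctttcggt
MX1: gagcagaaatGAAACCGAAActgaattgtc

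Single members differed in how far the 3 alleles went together. IFITM1, a membrane protein that blocks virus entry, stood at 12.1 CPM in wild type and 4.23, 6.65 and 2.46 CPM in G302V, R534H and P568L. OASL, a 2'-5' oligoadenylate synthetase-like protein, was at 210 CPM in wild type and 112, 116 and 116 CPM in the mutants, with 130 CPM in vector and 33.7 CPM in shDDX3X 3. The mutants were thus close to each other and to vector, and between the knockdown and wild type. ISG15, the ubiquitin-like modifier, was at 86.1 CPM in wild type and 48.2, 54.7 and 49.5 CPM in the mutants. Its log2 difference was -0.76 ± 0.69 (SE), within the spread between libraries. In other members R534H was at the wild type level and the other 2 alleles were not. IFI6, a mitochondrial antiapoptotic protein, was at 47.0 CPM in wild type, 47.8 CPM in R534H, 18.1 CPM in G302V and 10.5 CPM in P568L. IFI27 was at 26.8 CPM in wild type, 31.2 CPM in R534H, 9.19 CPM in G302V and 4.22 CPM in P568L. MX1, a dynamin-like antiviral GTPase, was at 98.0 CPM in wild type, 97.3 CPM in R534H, 58.6 CPM in G302V and 61.8 CPM in P568L. IFIT1 was at 30.9 CPM in wild type and 17.4, 25.9 and 27.6 CPM in the mutants. The MHC class I list, part of which responds to interferon, had a median of -0.01, with 9 of 17 lower.

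**Figure D2:**
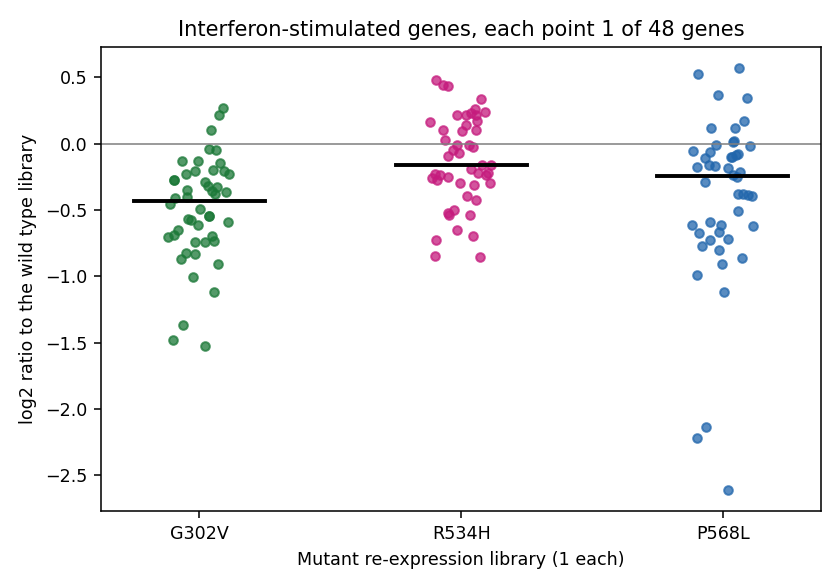
log2 ratio to the wild type library for each of the 48 interferon-stimulated genes in the G302V, R534H and P568L libraries, 1 point per gene, with a bar at the median. The medians are -0.43, -0.16 and -0.24, and the grey line marks the wild type level.

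Lists of neural development also had more members below wild type than above it, again with 0 genes past edgeR's test. Of 29 neural stem and glial genes, 24 were lower (median -0.20) and 18 were lower in all 3 mutants (62.1%, compared with 25% of all genes tested). NOTCH3, described above, led this list. GFAP, the astrocyte filament, was at 4.54 CPM in wild type and 2.66, 1.90 and 0.614 CPM in G302V, R534H and P568L. Of 21 Wnt targets and feedback genes, 17 were lower, with a median of -0.40 and medians of -0.43, -0.25 and -0.80 in the 3 mutants. Among the 14 with a mean of at least 5 CPM the median was -0.09, so the larger value came with low counts. NKD2, an inhibitor of Wnt signalling, was at 7.22 CPM in wild type and 3.26, 1.48 and 1.61 CPM in the mutants. Of 19 neuronal genes 13 were lower (median -0.27), but G302V had a median of 0.05 against -0.31 in R534H and -0.77 in P568L. Among the 9 neuronal genes with a mean of at least 5 CPM the class median turned to 0.02. L1CAM, a neuronal adhesion molecule, followed that order with 169 CPM in wild type, 114 CPM in G302V, 67.9 CPM in R534H and 39.5 CPM in P568L. Of 19 sonic hedgehog genes 13 were lower (median -0.12), and GLI1, the pathway's transcriptional readout, was at 3.50 CPM in wild type and 2.06, 0.845 and 1.31 CPM in the mutants.

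Epithelial genes were lower in 17 of 24 (median -0.19). KRT14, a basal keratin, was at 2.45 CPM in wild type and 0.604, 0.106 and 0.307 CPM in the mutants, and the value in R534H is at or under its limit of 0.313 CPM. PKP3, a desmosomal plakophilin, was at 7.34 CPM in wild type and 3.38, 2.22 and 2.92 CPM in the mutants. The marker list for epithelial cells is drawn from the same genes, so its sum is not a separate reading. It had 3 of 12 genes at 1 CPM or more in all 4 lines (KRT8, KRT18 and CLDN4), GRHL2 at 0, and a summed level of 466 CPM in wild type and 304, 229 and 235 CPM in the mutants. Its part in the result was not tested.

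Lists tied to DDX3X function in RNA and translation showed small differences. Translation initiation factors were higher in 32 of 39, with a median of 0.11, and all 3 mutants were above wild type for 18 (46.2%, compared with 24.0% of all genes tested). With GC trends removed 29 of 39 were higher and the median was 0.06. EIF3H and EIF3E, subunits of the eIF3 scaffold, were higher in G302V and P568L only. EIF3E was at 217 CPM in wild type, 307 CPM in G302V, 207 CPM in R534H and 301.8 CPM in P568L. EIF4A2, a DEAD-box helicase of the cap-binding complex, was at 299 CPM in wild type and 338, 348 and 385 CPM in the mutants. DEAD-box helicases were higher in 22 of 33 (median 0.06) and stress granule proteins in 19 of 26 (median 0.04). These counts became 18 of 33 (0.03) and 13 of 26 (-0.0015) after GC trends were removed, so no excess remained in the second list. CAPRIN1, a partner of the granule protein G3BP1, was at 457 CPM in wild type and 491, 596 and 659 CPM in the mutants, a log2 difference of 0.35 ± 0.21 (SE). Cytosolic ribosomal protein genes had a median of 0.03, with 44 of 75 higher.

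Of the other lists, ATF4 targets were higher in 26 of 32 (median 0.18), with medians of -0.10 in G302V, 0.21 in R534H and 0.38 in P568L. STC2, a secreted glycoprotein of this response, was at 131 CPM in wild type and 171, 200 and 249 CPM in the mutants. SLC7A11, the cystine transporter, was at 25.5 CPM in wild type, 24.9 CPM in G302V, 35.0 CPM in R534H and 59.2 CPM in P568L. BAMBI and ADAMTS5 had close values among the mutants. BAMBI, a pseudoreceptor that dampens TGF-beta signalling, was at 41.3 CPM in wild type and 24.9, 24.9 and 24.6 CPM in the mutants. Its log2 difference of -0.73 ± 0.20 (SE) had an adjusted p of 1 by edgeR. ADAMTS5, an aggrecan-cleaving protease, was at 41.3 CPM in wild type and 73.5, 73.5 and 69.3 CPM in the mutants, with 38.6 CPM in vector and 41.2 CPM in shDDX3X 3. Wild type thus stood with both reference libraries, and only the mutants were above them.

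**Figure D3:**
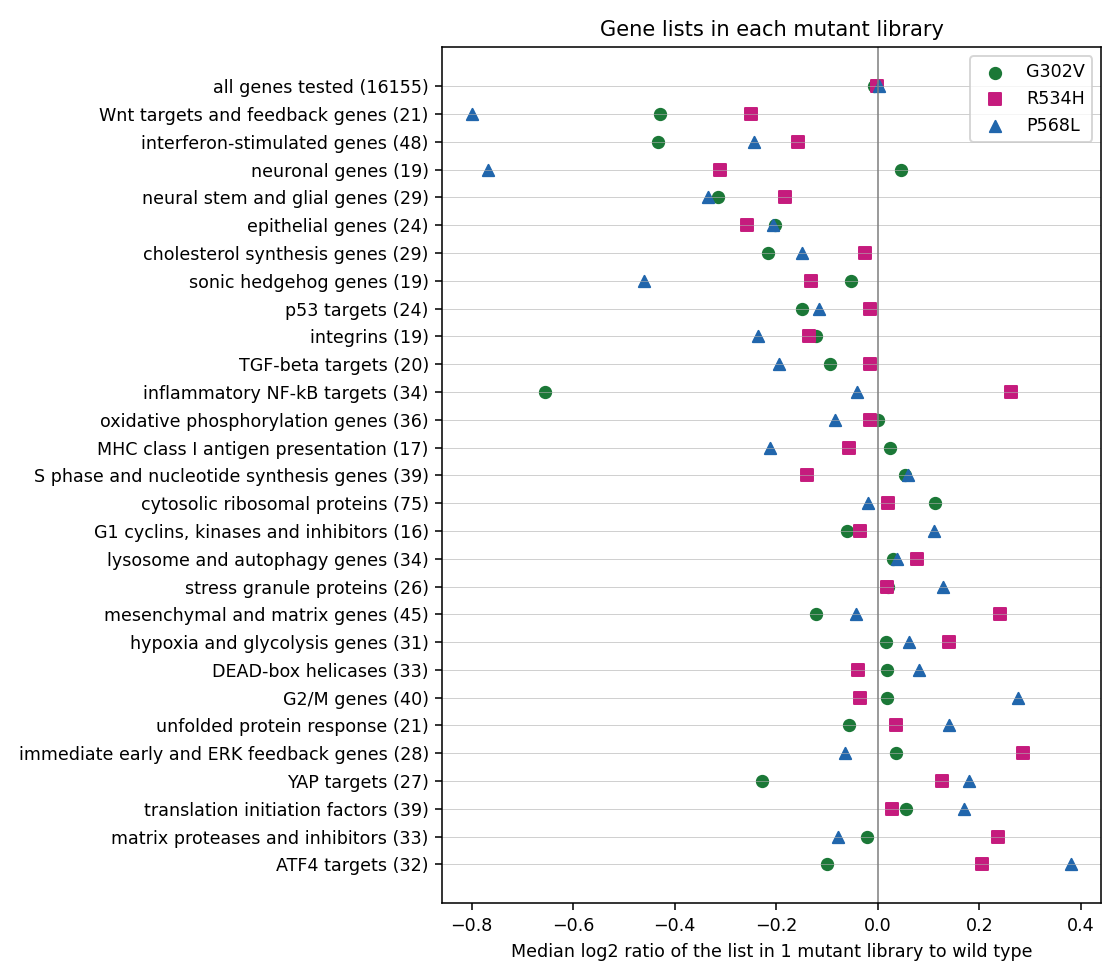
Median log2 ratio to the wild type library for each gene list (number of members tested in brackets) in the G302V, R534H and P568L libraries, with all genes tested at the top. All 3 points lie left of 0 for interferon-stimulated, Wnt, neural stem and epithelial genes. The same holds for the sonic hedgehog, integrin, p53, TGF-beta and cholesterol synthesis lists. The NF-kB targets have G302V at -0.66 and R534H at 0.26.

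The second comparison was between the 3 helicase mutants, with 1 library each. By edgeR's quasi-likelihood test, 0 of 16155 genes passed in each of the 3 pairwise contrasts (0%), with a smallest adjusted p of 1. At an unadjusted p under 0.05 there were 223 genes between G302V and R534H (1.38%), 231 between G302V and P568L (1.43%) and 128 between R534H and P568L (0.792%). Each mutant against the mean of the other 2 gave 0 calls, with 273 (1.69%), 151 (0.935%) and 162 (1%) at that unadjusted level for G302V, R534H and P568L. DESeq2 called 4 genes between G302V and R534H, 2 between G302V and P568L and 0 between R534H and P568L, with 99, 102 and 47 at an unadjusted p under 0.05. All 6 were higher in G302V: ADAMTS2, OLFM1, ZNF558 and NLRP5 against R534H, and NRCAM and DPP6 against P568L. These tests take the spread of the control and knockdown libraries to stand for the spread of a mutant library.

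By size, the genes at least 2-fold apart numbered 185 between G302V and R534H, 202 between G302V and P568L and 100 between R534H and P568L, of 11682. Split by direction, 97 were higher in G302V than in R534H (0.83%) and 88 lower (0.753%), and 132 were higher in G302V than in P568L (1.13%) and 70 lower (0.599%). R534H was at least 2-fold above P568L for 74 genes (0.633%) and below it for 26 (0.223%). The distances to wild type were 125 genes for G302V, 149 for R534H and 264 for P568L. The order of distances depends on the measure. By the median absolute log2 difference, R534H was nearer to wild type (0.167) than to G302V (0.174) or P568L (0.201), whereas by the 2-fold count it was nearest to P568L.

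G302V stood at least 2-fold above the other 3 lines for 12 genes (0.103%) and below them for 7 (0.0599%). FRMD3, a FERM domain protein, was at 15.5 CPM in G302V and at 3.38 CPM in wild type, 1.16 CPM in R534H and 1.15 CPM in P568L. NRCAM and DPP6 encode a neuronal adhesion molecule and an auxiliary subunit of potassium channels. NRCAM was at 28.2 CPM in G302V and 8.97, 2.96 and 2.38 CPM in wild type, R534H and P568L. DPP6 was at 35.1 CPM in G302V and 8.51, 10.1 and 4.30 CPM in the same order. Vector cells had 11.2 CPM of FRMD3, 14.3 CPM of NRCAM and 36.6 CPM of DPP6, and shDDX3X 3 had 2.72, 2.25 and 8.15 CPM. For these 3 genes G302V was therefore near or above the vector level, and R534H and P568L were nearer to the knockdown level. Wild type was also near the knockdown level for FRMD3 and DPP6, and lay between shDDX3X 3 and vector for NRCAM. A low level is thus not particular to R534H and P568L. ITGA9, an integrin subunit, was at 16.8 CPM in G302V and at 4.22 to 5.36 CPM in the other 3 lines. Below the others in G302V were GGT1, IKZF1, PLEK2, CXCL8 and SPANXA1, the last of a family of near-identical genes whose counts are uncertain. IKZF1, a zinc finger transcription factor, was at 8.95 CPM in G302V and at 28.7, 28.3 and 21.6 CPM in wild type, R534H and P568L.

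ADAMTS2, a protease that trims fibrillar procollagens, was set apart in both G302V and R534H. It stood at 62.3 CPM in G302V, 17.9 CPM in wild type, 7.37 CPM in P568L and 1.27 CPM in R534H, with 1 library each. In the control and knockdown libraries ADAMTS2 ran from 2.35 CPM in shDDX3X 2 to 18.3 CPM in shDDX3X 3, a range that holds the wild type and P568L values. The log2 difference of G302V from R534H was 5.61 ± 1.06 (SE), with an adjusted p of 1 by edgeR. ZNF558 and PRLR, the prolactin receptor, followed the same order of the re-expression lines. ZNF558 was at 13.8 CPM in G302V, 6.64 CPM in wild type, 3.38 CPM in P568L and 0.845 CPM in R534H. PRLR was at 17.2, 7.46, 6.14 and 1.80 CPM in the same order. OLFM1, a secreted neuronal olfactomedin named here after its values were seen, was at 107 CPM in G302V, 44.2 CPM in wild type, 38.8 CPM in P568L and 14.7 CPM in R534H.

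R534H was at least 2-fold above the other lines for 5 genes (0.0428%) and below them for 10 (0.0856%). DCN, the matrix proteoglycan decorin, was at 18.5 CPM in R534H and at 3.38, 3.02 and 4.45 CPM in wild type, G302V and P568L. CHI3L1, a secreted chitinase-like glycoprotein, was at 26.2 CPM in R534H and at 10.95, 5.92 and 4.07 CPM in the others. PAMR1 was at 16.0 CPM in R534H and at 5.24, 7.37 and 3.92 CPM, and NR3C2, the mineralocorticoid receptor, at 21.5 CPM and 5.36, 9.43 and 10.4 CPM in the same order. The marker list for fibroblast and smooth muscle cells, which holds DCN, summed to 9419 CPM in R534H and to 6001, 6232 and 7397 CPM in wild type, G302V and P568L, with 7 of 10 genes at 1 CPM or more in all 4 and none at 0 in all. Its part in these values was not tested. NLRP5 had 2 reads in R534H, under the limit of 0.313 CPM that a count of 0 allows there, and stood at 11.4, 9.67 and 7.14 CPM in wild type, G302V and P568L. TMEM179 was at 2.43 CPM in R534H and at 8.86, 13.3 and 6.76 CPM in the others.

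P568L was set apart mostly by low values, with 17 genes at least 2-fold below the other lines (0.146%) and 2 above (0.0171%). GAS7, a cytoskeletal protein of outgrowing neurites, was at 12.2 CPM in P568L and at 40.3, 45.2 and 36.3 CPM in wild type, G302V and R534H. BMP7, a bone morphogenetic protein, was at 6.60 CPM in P568L and at 18.5, 19.8 and 18.6 CPM in the others. CRTAC1, TPPP and the prostaglandin transporter SLCO2A1 had the same pattern. CRTAC1 was at 20.2 CPM in P568L and at 57.5, 48.2 and 52.1 CPM in the others. In each of these genes the other 3 re-expression lines lay close together and P568L was below them. In shDDX3X 1, 2 and 3 GAS7 was also low, at 14.7, 16.6 and 7.68 CPM, against 104 CPM in vector. TPPP was at 1.24, 1.93 and 4.49 CPM there and at 1.54 CPM in P568L. A low level of these genes is thus not particular to P568L. In the same knockdowns BMP7 was at 8.44, 6.54 and 16.9 CPM, SLCO2A1 at 37.7, 72.3 and 17.5 CPM, and CRTAC1 at 37.8, 45.7 and 41.1 CPM. DIO2, the deiodinase that activates thyroid hormone, was the named gene on the higher side, with 13.0 CPM in P568L and 4.08, 5.20 and 6.13 CPM in the others. The GC trend of P568L moves with low values of GC-rich genes. With GC trends removed, the number of genes set apart in either direction was 15 for P568L, compared with 19 (0.163%) as deposited, 20 for G302V compared with 19 (0.163%), and 18 for R534H compared with 15 (0.128%).

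**Figure D4:**
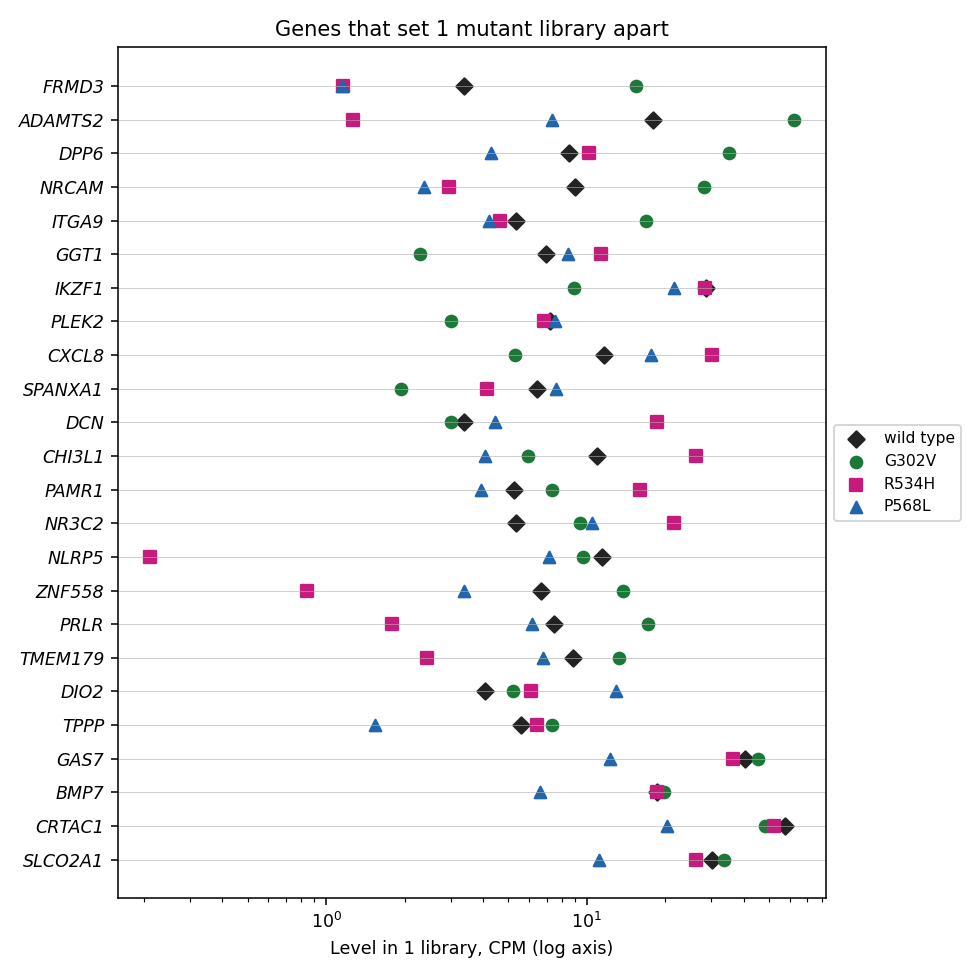
Level in CPM (log axis) of the genes by which 1 mutant library stands at least 2-fold apart from the other 3 re-expression lines, 1 point per library. FRMD3 to ITGA9 are highest in G302V, DCN to NR3C2 are highest in R534H, and TPPP to SLCO2A1 are lowest in P568L.

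Inflammatory targets of NF-kB had the largest median difference of any list between G302V and R534H. Between the other pairs another list was farther apart, neuronal genes for G302V and P568L and immediate early genes for R534H and P568L. NF-kB transcription factors are held in the cytoplasm by inhibitors such as NFKBIA and, once released, switch on cytokines, adhesion molecules and their own inhibitors. Of 34 genes tested, 33 were lower in G302V than in R534H (median log2 difference -0.86), 30 were lower in G302V than in P568L (-0.57), and 7 were lower in R534H than in P568L (0.37). Over all genes tested, 50.2%, 50.2% and 50.4% were lower and the medians were all 0.00. Between G302V and R534H, 15 of the 34 were at least 2-fold apart, compared with 981 of all 16155 genes tested, and 5 had an unadjusted p under 0.05, compared with 1.38% of all genes, and 0 passed the adjusted test. G302V had the lowest level of the 4 lines for 28 of the 34 (82.4%, compared with 24.8% of all genes tested), and R534H had the highest for 21 (61.8%, compared with 22.1%). Relative to wild type the medians were -0.66 in G302V, 0.26 in R534H and -0.04 in P568L. Every member but IER3, TRAF1 and PLAU was below wild type in G302V. Because the alleles went opposite ways, the class median was -0.08, and it was 0.12 without G302V. With GC trends removed the medians between mutants were -0.88, -0.60 and 0.36, and among the 25 members with a mean of at least 5 CPM they were -0.82, -0.49 and 0.35.

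Promoter windows of 4 members that hold a kappaB element, the site NF-kB proteins bind, are printed as examples. Its letters, GGG and TTCC with any 3 bases between them, searched on both strands in the same windows and build, were found in 12 of 27 members with an entry (44.4%) and in 2289 of all 35116 promoters (6.52%). The match is in capitals, at chr4:73869304-73869333 (plus strand), chr7:22727117-22727146 (plus), chr6:137867182-137867211 (plus, reading on the opposite strand) and chr14:35404811-35404840 (minus, reading on the opposite strand).
CXCL1: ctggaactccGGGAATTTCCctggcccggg
IL6: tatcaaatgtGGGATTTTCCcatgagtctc
TNFAIP3: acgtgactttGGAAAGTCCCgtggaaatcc
NFKBIA: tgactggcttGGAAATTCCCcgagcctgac

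The cytokines had the widest ranges. CXCL8, the neutrophil chemokine interleukin 8, was at 11.7 CPM in wild type, 5.32 CPM in G302V, 30.1 CPM in R534H and 17.7 CPM in P568L. Libraries without a mutant spanned a wider range of CXCL8, from 3.66 CPM in parental cells to 49.0 CPM in shDDX3X 2. Its log2 difference of G302V from R534H was -2.50 ± 1.252 (SE), with an adjusted p of 1 by edgeR. IL6 was at 8.39 CPM in wild type and 3.26, 14.2 and 4.99 CPM in the mutants, and CXCL1 at 5.13 CPM and 2.66, 9.30 and 5.30 CPM. For all 3, R534H was above and G302V below the other lines. CCL2, the monocyte chemokine, was at 384 CPM in wild type, 192 CPM in G302V, 410 CPM in R534H and 341 CPM in P568L, with 315 CPM in vector and 327 CPM in shDDX3X 3. Only G302V departed from the other 5 libraries. IL11 and LIF, cytokines that signal through gp130, had another pattern, with R534H high and G302V at the wild type level. IL11 was at 25.2 CPM in wild type and 23.2, 60.4 and 30.2 CPM in the mutants. LIF was at 38.6 CPM in wild type and 36.6, 68.3 and 49.1 CPM in the mutants, and both were also higher in shDDX3X 3 (65.3 and 72.0 CPM) than in vector (24.9 and 47.5 CPM).

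Effectors and feedback inhibitors followed the order of the cytokines with smaller ranges. SOD2, the mitochondrial superoxide dismutase, was at 559 CPM in wild type, 304 CPM in G302V, 659 CPM in R534H and 538 CPM in P568L. VCAM1, an endothelial-type adhesion molecule, was at 41.3 CPM in wild type and 20.1, 49.96 and 38.9 CPM in the mutants. PTGS2, the inducible cyclooxygenase, was at 23.2 CPM in wild type and 10.6, 31.7 and 19.6 CPM in the mutants. In these genes P568L was near wild type and G302V was lowest. TNFAIP3, the A20 ubiquitin-editing inhibitor, was at 51.2 CPM in wild type and 30.8, 69.6 and 52.0 CPM in the mutants. NFKBIA was at 146 CPM in wild type and 107, 164 and 129 CPM in the mutants. ICAM1 was at 222 CPM in wild type and 160, 263 and 259 CPM in the mutants. The shDDX3X 3 library had a list median of 0.22 against vector.

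**Figure D5:**
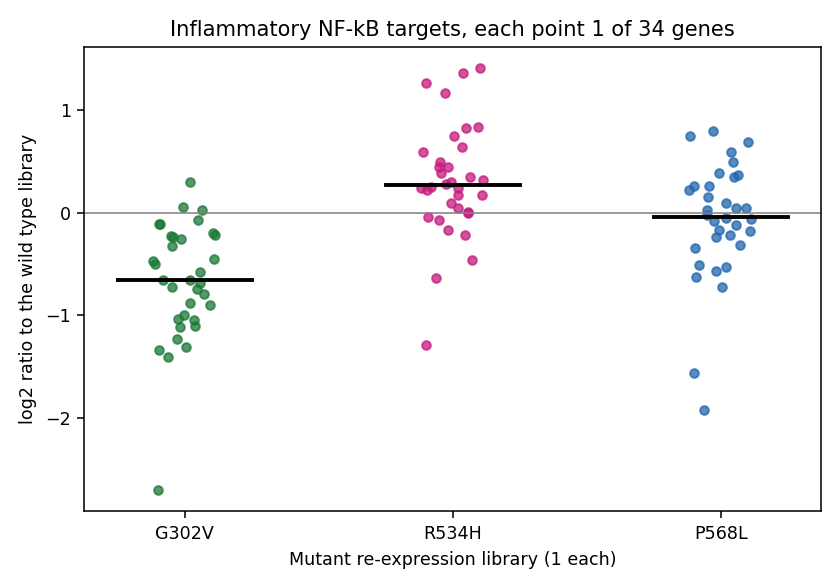
log2 ratio to the wild type library for each of the 34 inflammatory NF-kB targets in the G302V, R534H and P568L libraries, 1 point per gene, with a bar at the median. The medians are -0.66, 0.26 and -0.04, and most G302V points lie below the grey line that marks wild type.

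Other lists also separated the alleles, with 0 genes past edgeR's test. Neuronal genes were higher in G302V than in P568L for 15 of 19 (median 0.64), and the median was 0.44 among the 9 members with a mean of at least 5 CPM. ATF4 targets were lower in G302V than in P568L for 30 of 32 (median -0.40), and P568L had the highest of the 4 levels for 23 of 32 (71.9%, compared with 29.3% of all genes tested). Immediate early and ERK feedback genes were higher in R534H than in P568L for 24 of 28 (0.44), with R534H the highest line for 19 (67.9%, compared with 22.1%). That median was 0.36 with GC trends removed. DUSP1, a phosphatase of MAP kinases, was at 29.5 CPM in wild type and 37.2, 57.9 and 37.4 CPM in G302V, R534H and P568L. YAP targets were lower in G302V than in R534H for 22 of 27 (-0.27) and than in P568L for 23 of 27 (-0.30). S phase genes were lower in R534H than in P568L for 37 of 39 (-0.20), and R534H was the lowest line for 27 of 39 (69.2%, compared with 22.5% of all genes tested). G2/M genes were lower in G302V and R534H than in P568L for 34 and 33 of 40 (-0.29 and -0.28). HMMR, a spindle protein of dividing cells, was at 30.5 CPM in wild type and 36.1, 36.3 and 52.5 CPM in the mutants. With GC trends removed the G2/M medians were -0.15 and -0.21, and that of S phase genes was -0.25. Cytosolic ribosomal protein genes were higher in G302V than in P568L for 65 of 75 (0.17) and than in R534H for 55 of 75 (0.11), and G302V was the highest line for 43 of 75 (57.3%, compared with 23.5%).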

How the data were processed

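RNA from 9 Daoy libraries was poly(A)-selected, made into unstranded TruSeq v2 libraries and read as 100 nt single ends, per the labels' protocols. The authors deposited raw counts per gene for 57820 Ensembl identifiers. Per the submitters' processing notes, HISAT2, HTSeq, bcl2fastq and DESeq2 were used with GRCh37/hg19, in roles, versions and settings not given in the sources used here. As strand is not marked, reads of overlapping and antisense genes cannot be told apart. The 5 HTSeq summary lines of each table, 20.3% to 35.8% of reads, were left out of library sizes and tests. Reads in genes numbered 8216568 to 13030572 per library. Symbols came from GENCODE v29 by identifier (52338 matched, 90.52%).

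Groups (control, 2; shDDX3X, 3; wild type, 1; mutant, 3) came from the labels. edgeR 4.0.16 (R 4.3.3, TMM, robust quasi-likelihood, a minimum of 1 CPM in 2 or more libraries) was fitted to all 9 libraries, with group and series of deposited numbers (A, 3 libraries; B, 6) as terms. No label ties that series to a sequencing run. The control group joins parental and vector cells, the shDDX3X group joins both hairpins, and the mutant class joins the 3 alleles. Differences inside these groups beyond the series term count as spread in the test. Residual and prior degrees of freedom were 4 and 5.85, and 2 and 3.76 with each mutant as its own group. Calls were made at an adjusted p of 0.05. Counts by size used log2 ratios of CPM with a prior count of 2 and no test. The fit was tested on simulated counts for 16155 genes with 200 altered. It made 4 false calls there, and 0 when none was altered.

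Named genes were DDX3X, up to 12 per direction with all 3 mutants at least 2-fold from wild type (by the nearest mutant), up to 5 per direction and mutant set apart from the other 3 lines, and up to 3 per list in the direction of its median. Further genes were named after their values were seen. The mutants, comparisons and gene lists were chosen with earlier results of these data known. Alternatives covered size factors, filters, prior counts, fold thresholds, the series term, DESeq2 1.42.0, GC trends and leaving out single libraries.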

Additional observations from a re-analysis of the deposited data

How the results depend on the processing

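The limits are those of single libraries: wild type and each mutant had 1 library, simulated 2-fold differences mostly did not pass, and genes under 5 CPM rest on few reads. No paired analysis was possible because the re-expression groups carry no replicate numbers in the labels. The count of genes called between mutants and wild type was 36 (2 higher, 34 lower) with no filter on low counts and stayed at 0 under the other alternatives run. These included RHOU (-1.60, adjusted p = 0.0281), IGFBP2 (-1.59, 0.0233) and TGM2 (-1.43, 7.15e-05) by edgeR, and the cause was not tested. Between mutants, DESeq2 called 6 genes and edgeR 0. Genes with all 3 mutants at least 2-fold from wild type (0 higher, 19 lower) numbered 51 and 137 with no minimum on the mean, 41 and 95 at 1.5-fold, 0 and 0 at 4-fold, and 6 lower with a mean of at least 10 CPM. Leaving out 1 mutant gave 4 to 15 higher and 25 to 67 lower, since fewer libraries had to agree. Genes setting G302V, R534H or P568L apart (19, 15 and 19) numbered 165, 121 and 117 with no minimum, 10, 6 and 8 at a mean of 10 CPM, 109, 82 and 210 at 1.5-fold, and 1, 4 and 0 at 4-fold. The knockdown median of the 19 genes, -0.76 in shDDX3X 3, was 0.38 in shDDX3X 1 and 0.69 in shDDX3X 2. With GC trends removed these medians were -0.85, -0.71 and 0.17 in the same order, so the direction in shDDX3X 1 depended on the GC trend. Single mutants moved these list medians: interferon-stimulated genes to -0.43 (G302V), ATF4 targets to -0.10 (G302V), epithelial genes to -0.26 (R534H), Wnt genes to -0.80 (P568L), neural stem and glial genes to -0.31 (G302V) and -0.33 (P568L), and neuronal genes to -0.77 (P568L). Epithelial genes stood at -0.26 with GC trends removed, -0.28 with DESeq2 size factors and -0.086 at a mean of at least 5 CPM, where Wnt genes stood at -0.088. Leaving out 1 mutant gave -0.31 to -0.17 for epithelial genes and -0.31 to -0.25 for neural stem and glial genes. Of the 13 single genes followed through the fit, none reversed direction under any alternative run.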
